A study of Mus musculus with 76 samples.

Results

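The 6 genes followed here encode the enzymes that make GABA and the transporters that load GABA or glutamate into synaptic vesicles. They were taken by name from the 56980 genes of a count table of 76 single neurons. They are *Gad1*, *Gad2* and *Slc32a1* for GABA, and *Slc17a6*, *Slc17a7* and *Slc17a8* for glutamate. All 6 had a count in at least 1 cell. The neurons came from the hypothalamus of male PomcCreERT2;tdTomato;Pomc-eGFP mice and were recorded with a patch pipette before their content was sequenced (Patch-seq). All mice received tamoxifen at 12 weeks of age, which switches on the red tdTomato reporter for good in cells where the *Pomc* promoter drives the Cre enzyme at that time. The green Pomc-eGFP reporter follows the promoter at the time of recording. Red cells with green signal are labelled Pomc+ and red cells without it Ghost, so the labels rest on a transgene and not on *Pomc* RNA. Mice were then fed chow (CD, 23 Pomc+ and 15 Ghost cells) or a high-fat diet (HFD, 19 Pomc+ and 19 Ghost cells) for 6 months.

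The labels name no mouse, although the cells came from 5 mice per diet. Each of the 4 groups was therefore treated as 1 sample, no p-value was computed from cells, and shares are given with exact Clopper-Pearson 95% intervals that cover counting error only. Total counts ranged from 4057 to 1452605 per cell, with group medians between 123528 in Ghost CD and 393797 in Pomc+ HFD cells. Of 6 neuronal markers, *Snap25* was counted in 67 of 76 cells, *Tubb3* and *Stmn2* in 62 each, *Map2* in 61, *Rbfox3* in 40 and *Syt1* in 36. Of 3 markers of Pomc neurons, *Pomc* and *Cartpt* were counted in 73 cells each and *Tbx3* in 34. *Pomc* RNA was thus counted in most Ghost cells as well, in 14 of 15 on CD and 18 of 19 on HFD. Markers of glia were counted too, among them the myelin gene *Mbp* in 42 cells and the microglial gene *C1qa* in 26. Of 3 markers of tanycytes and ependymal cells, *Rax* was at 0 throughout, while *Col23a1* was counted in 6 cells and *Foxj1* in 2. RNA of other cells in a pipette and RNA of the recorded neuron cannot be told apart in these counts.

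Neurons that release GABA make it from glutamate with the 2 glutamate decarboxylases, GAD67 from *Gad1* and GAD65 from *Gad2*. The vesicular GABA transporter VGAT, from *Slc32a1*, then loads it into vesicles. Neurons that release glutamate carry a vesicular glutamate transporter, which is VGLUT2 from *Slc17a6* in most of the hypothalamus, VGLUT1 from *Slc17a7* in most of the cortex, and VGLUT3 from *Slc17a8* in scattered neurons of other transmitter types. Pomc neurons of the arcuate nucleus are known for a mixed make-up, with cells of GABA type, cells of glutamate type and cells that carry marks of both.

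The decarboxylases are close relatives, and so are the 3 glutamate transporters, so their sequences show how well reads can tell them apart. Positions are on GRCm38 and all genes but *Slc17a8* lie on the plus strand. *Gad1* (ENSMUSG00000070880) lies at chr2:70553072-70602014, *Gad2* (ENSMUSG00000026787) at chr2:22622205-22693874 and *Slc32a1* (ENSMUSG00000037771) at chr2:158610767-158615748. *Slc17a6* (ENSMUSG00000030500) lies at chr7:51622006-51671119, *Slc17a7* (ENSMUSG00000070570) at chr7:45163949-45176142 and *Slc17a8* (ENSMUSG00000019935) at chr10:89574020-89621253. The coding sequences of *Gad1* and *Gad2* were identical at 1168 of 1742 aligned bases (67%), and the longest exact stretch shared by any of their transcripts was 17 bases. The stretch around the lysine that holds the cofactor pyridoxal phosphate, read from the GENCODE transcripts, is shown 5′ to 3′ because it holds that longest shared stretch, with the codons of the conserved motif that ends in this lysine in capitals.
*Gad1*: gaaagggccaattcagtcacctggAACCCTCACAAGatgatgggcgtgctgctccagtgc
*Gad2*: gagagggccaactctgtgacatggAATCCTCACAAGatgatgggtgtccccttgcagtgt
These 60 coding bases were identical at 47. In *Gad1* they run across exons 12 and 13 (chr2:70591166-70593486) and in *Gad2* across exons 11 and 12 (chr2:22669761-22673998), with an intron inside each range.

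*Slc17a6* and *Slc17a7* coding sequences were identical at 1212 of 1677 aligned bases (72.3%), and *Slc17a6* and *Slc17a8* at 1248 of 1741 (71.7%). Their longest shared stretches were 21 and 25 bases. The first of these is shown in capitals within coding exon sequence of exon 2 of both genes, at chr7:51625438-51625506 for *Slc17a6* and at chr7:45168872-45168940 for *Slc17a7*.
*Slc17a6*: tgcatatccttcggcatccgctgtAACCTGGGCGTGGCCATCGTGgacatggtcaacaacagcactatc
*Slc17a7*: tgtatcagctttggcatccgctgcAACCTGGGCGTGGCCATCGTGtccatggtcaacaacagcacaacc
The 69 bases were identical at 59. Reads of 150 bases are longer than every such stretch. Antisense genes overlap exons of *Gad1* (*Gad1os*) and of *Slc32a1* (*Gm14205*), and both had no count in any cell. The libraries mark no strand and the counting program is not given, so how reads in these overlaps were assigned is not known.

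*Gad2* and *Gad1* were by far the most widely counted of the 6. *Gad2* had a count in 47 of 76 cells (61.8%, 95% interval 50 to 72.8) and *Gad1* in 42 (55.3%, 43.4 to 66.7). *Slc17a6* had a count in 19 cells (25%, 15.8 to 36.3), *Slc17a7* in 9 (11.8%, 5.56 to 21.3), *Slc32a1* in 5 (6.58%, 2.17 to 14.7) and *Slc17a8* in 1 (1.32%, 0.0333 to 7.11). Per kilobase of annotated exon, the mean level over all cells, in CPM (the count of a gene per 1000000 counts of the cell) per kilobase, was 51.6 for *Gad2*, 29.3 for *Gad1* and 5.3 for *Slc17a6*. The same level was 0.408 for *Slc32a1*, 0.306 for *Slc17a7* and 0.00854 for *Slc17a8*. The order of *Gad2* and *Gad1* held when the counts of all cells were summed first (42.5 and 34.3), while *Slc17a7* then stood above *Slc32a1* (0.304 and 0.282). The exon length of *Gad1*, 7639 bases, includes transcripts with retained introns, which lowers its level on this scale.

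**Figure D1:**
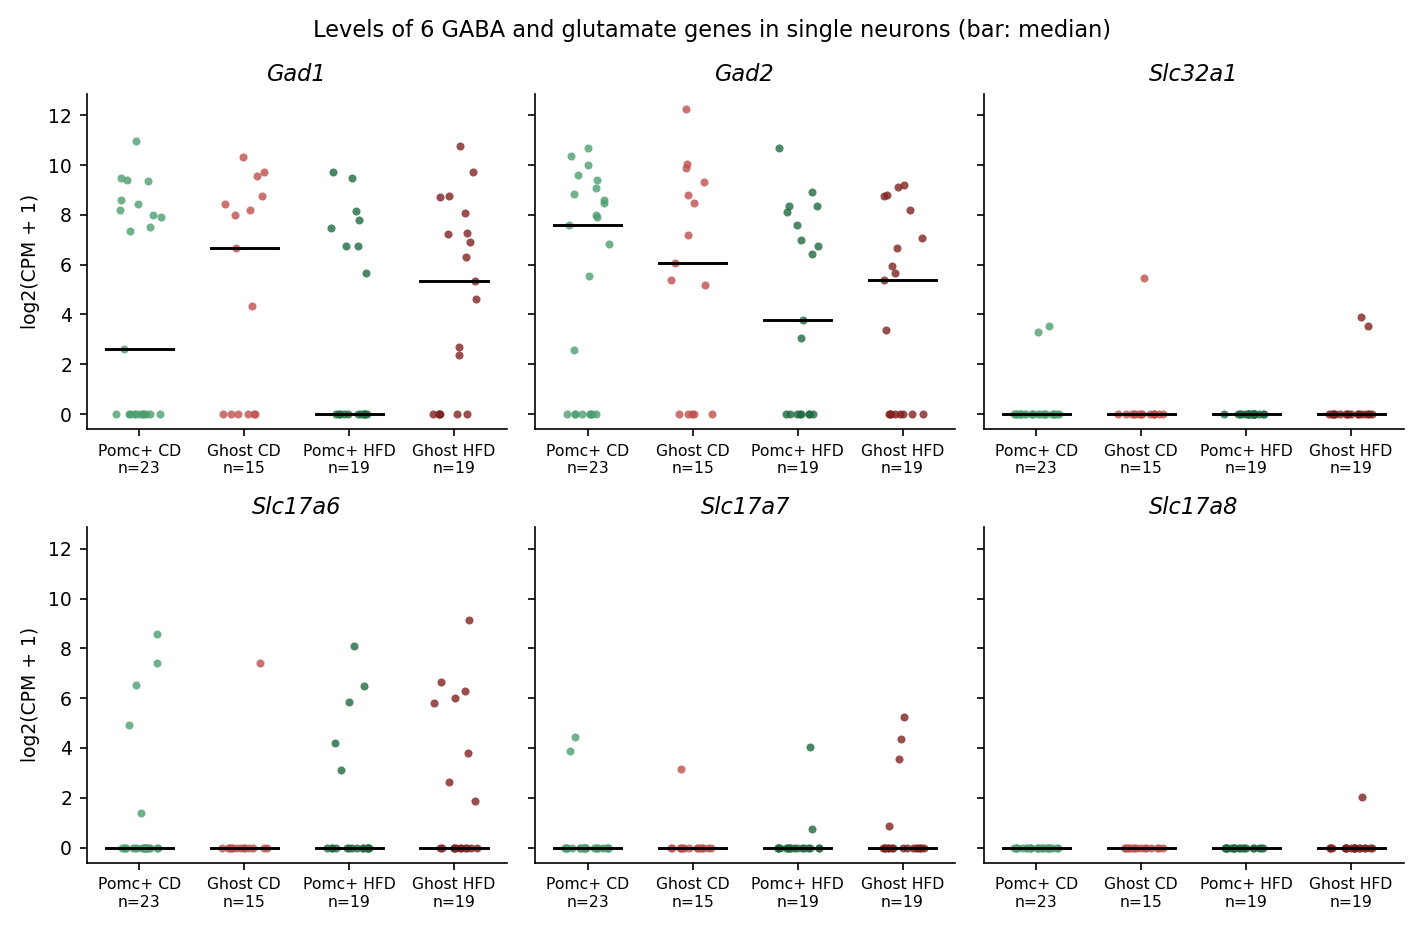
Level of each of the 6 genes in every cell, as log2(CPM + 1), by label and diet, with 1 point per cell and a bar at the group median. *Gad1* and *Gad2* spread from 0 to above 9 within groups, *Slc17a6* has points above 0 in 19 cells, and *Slc32a1*, *Slc17a7* and *Slc17a8* lie at 0 in nearly all cells.

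*Gad1*, the gene of the decarboxylase found throughout the neuron, was counted in 12 of 23 Pomc+ CD cells (52.2%, 30.6 to 73.2) and in 9 of 15 Ghost CD cells (60%, 32.3 to 83.7). On HFD it was counted in 8 of 19 Pomc+ cells (42.1%, 20.3 to 66.5) and in 13 of 19 Ghost cells (68.4%, 43.4 to 87.4). In Pomc+ CD cells its level ran from 0 through a median of 5.11 to a highest value of 1981 CPM, and in Ghost CD cells from 0 through 100 to 1269 CPM. In Pomc+ HFD cells it ran from 0 through 0 to 854 CPM, and in Ghost HFD cells from 0 through 39.6 to 1754 CPM. The 4 groups overlapped over nearly their whole range, and in each of them cells without a count stood beside cells at 854 CPM or more. The share of Ghost cells with *Gad1* was above that of Pomc+ cells on both diets, and the intervals overlapped on both. With each cell of at least 40000 counts taken at 40000, the expected shares on CD were nearly level, at 53.3% in Pomc+ and 54.6% in Ghost cells. On HFD they were 38.1% and 63.3%. With 10000 counts per cell and the 7 genes counted in every cell left out, they were 54.9% and 59.5% on CD, and 34.7% and 54.1% on HFD. The cells below 40000 counts were 2 Pomc+ CD, 3 Ghost CD, 1 Pomc+ HFD and 2 Ghost HFD cells. Of these, Ghost CD cells 659 and 711 and Pomc+ HFD cell 693 held *Gad1*. The change of cells and the change of depth were not separated.

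*Gad2*, the gene of the decarboxylase concentrated at nerve endings, was counted in 15 of 23 Pomc+ CD cells (65.2%, 42.7 to 83.6) and in 10 of 15 Ghost CD cells (66.7%, 38.4 to 88.2). On HFD it was counted in 11 of 19 cells of either label (57.9%, 33.5 to 79.7). With each cell of at least 40000 counts taken at 40000, the expected shares were 66.9% in Pomc+ CD and 57% in Ghost CD cells. On HFD they were 53.6% in Pomc+ and 58.4% in Ghost cells. Ghost CD cells 659, 711 and 712 held *Gad2* and were left out as below 40000 counts. The level of *Gad2* ran from 0 through 194 to 1669 CPM in Pomc+ CD cells and from 0 through 65.9 to 4930 CPM in Ghost CD cells. On HFD it ran from 0 through 12.7 to 1661 CPM in Pomc+ cells and from 0 through 41.3 to 584 CPM in Ghost cells. The highest *Gad2* value, 4930 CPM, rested on 20 counts in Ghost CD cell 712, which had the fewest counts of all cells (4057). It made 56.8% of the summed *Gad2* CPM of its group. Group medians were lower than group means in every case, because a few cells carried much of each mean.

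The 2 decarboxylase genes were often in the same cell. *Gad2* was counted in 34 of the 42 cells with *Gad1* (81%, 65.9 to 91.4) and in 13 of the 34 cells without it (38.2%, 22.2 to 56.4). The cells with *Gad1* were also deeper, with a median of 495782 counts against 118724 in the cells without it, and the part of depth in this difference was not tested. By label, *Gad2* was counted in 18 of 20 Pomc+ cells with *Gad1* (90%, 68.3 to 98.8) and in 16 of 22 such Ghost cells (72.7%, 49.8 to 89.3). Among the 34 cells with both genes, *Gad1* had more counts in 18, *Gad2* in 15 and 1 cell had equal counts. The log2 ratio of *Gad1* to *Gad2* counts ran from -6.23 to 5.62 with a median of 0.27 (log2 scale), and 16 of the 34 cells lay within 2-fold.

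Some cells carried 1 decarboxylase gene at high counts without the other. *Gad1* alone was found in 8 cells, 3 of them with over 100 counts and the highest with 335. *Gad2* alone was found in 13 cells, 4 of them with over 100 counts and the highest with 355. Pearson's r of log2(CPM + 1) between the genes was 0.396 over all 76 cells and 0.382 over the 34 cells with both, which is a description over cells that share libraries of unequal depth.

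**Figure D2:**
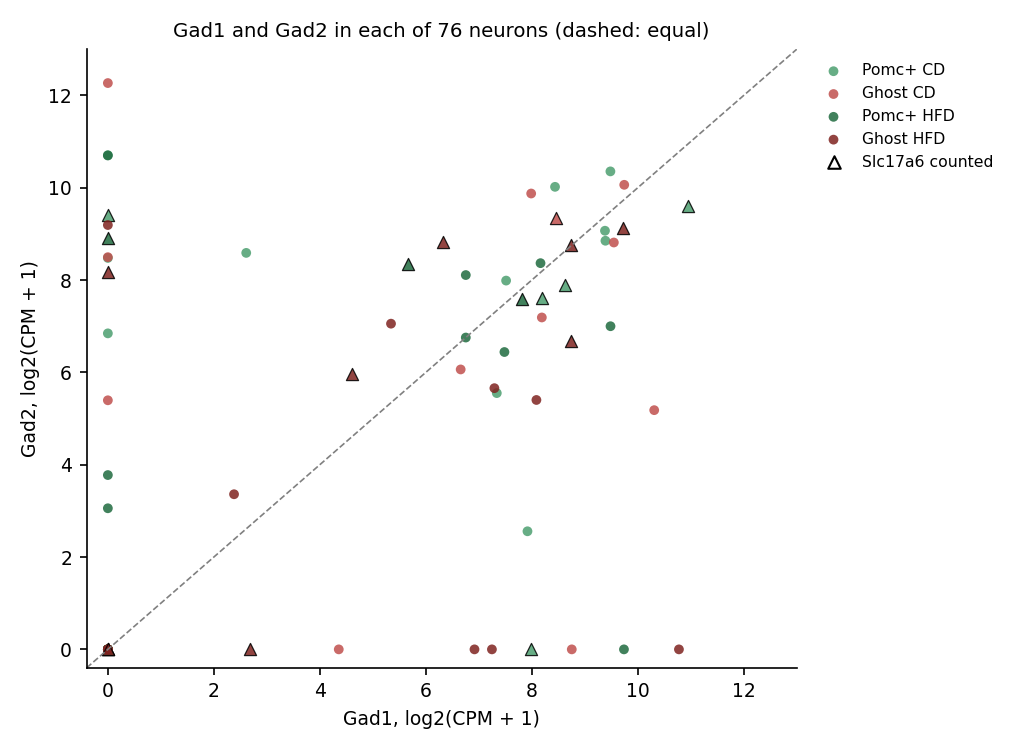
*Gad2* against *Gad1* in each of 76 neurons, both as log2(CPM + 1), coloured by label and diet, with triangles for cells with a count of *Slc17a6* and a dashed line of equal levels. The 34 cells with both genes scatter on either side of the line, 8 cells lie on the *Gad1* axis and 13 on the *Gad2* axis, and triangles occur among all of these.

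*Slc32a1*, the gene of the vesicular GABA transporter, was close to absent from the counts. It had 26 counts in all, against 8621 for *Gad1* and 8223 for *Gad2*. How reads in its overlap with *Gm14205* were assigned is not known, and the part of this in the low number was not tested. Pomc+ CD cells had 8 counts in cell 663 and 1 in cell 685, Ghost CD cells had 11 in cell 690, and Ghost HFD cells had 4 in cell 646 and 2 in cell 698. None of 19 Pomc+ HFD cells had a count, which allows a share of up to 15.8% by the limit of 3 cells and of up to 17.6% by the exact interval. Only 3 of the 55 cells with *Gad1* or *Gad2* had a count of *Slc32a1* (5.45%, 1.14 to 15.1), and 2 of the 21 cells without either did (9.52%, 1.17 to 30.4). The 3 were cells 663, 690 and 698, and the 2 without a decarboxylase count were cells 685 and 646. The median total of the 55 cells was 397617 counts. At that depth both decarboxylases and the transporter that fills GABA vesicles were counted together in 2 cells, 663 and 698.

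*Slc17a6* was the glutamate transporter gene with the most counts, 1669 in all. It was counted in 5 of 23 Pomc+ CD cells (21.7%, 7.46 to 43.7) and in 1 of 15 Ghost CD cells (6.67%, 0.169 to 31.9). On HFD it was counted in 5 of 19 Pomc+ cells (26.3%, 9.15 to 51.2) and in 8 of 19 Ghost cells (42.1%, 20.3 to 66.5). The 5 Pomc+ CD cells held 1.62, 29.1, 91.1, 168 and 377 CPM, and the Ghost CD cell held 171 CPM. The 5 Pomc+ HFD cells held 7.67, 17.4, 56.7, 89.9 and 274 CPM. The 8 Ghost HFD cells held 2.69, 5.23, 13, 55, 63.9, 76.4, 100 and 572 CPM. Levels in the cells that had the gene overlapped among all groups, and what differed most was the number of cells with a count. Of the 19 cells, 14 had at least 5 counts and 5 had 1 or 2.

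Over both labels, *Slc17a6* was counted in 6 of 38 CD cells (15.8%, 6.02 to 31.3) and in 13 of 38 HFD cells (34.2%, 19.6 to 51.4), with intervals that overlapped. Expected shares with each cell of at least 40000 counts taken at 40000 were 14.4% on CD and 26.4% on HFD. By group these equal-depth shares were 17.8% in Pomc+ CD, 8.33% in Ghost CD, 20.8% in Pomc+ HFD and 32.3% in Ghost HFD cells, in the same order as without thinning. With the 7 genes counted in every cell left out and 10000 other counts per cell, they were 14.4%, 6.42%, 13.9% and 23%, and the Pomc+ cells of the 2 diets changed places. The cells of 1 diet carry runs of consecutive cell numbers, and 9 of the 13 HFD cells with *Slc17a6* were among the 21 cells numbered 637 to 657. The median total of that run was 538838 counts. In the other 17 HFD cells the share was 4 of 17 (23.5%, 6.81 to 49.9). In Ghost HFD cells alone it was 7 of 11 inside this run and 1 of 8 outside it (12.5%, 0.316 to 52.7). The run and the high share among Ghost HFD cells cannot be told apart.

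**Figure D3:**
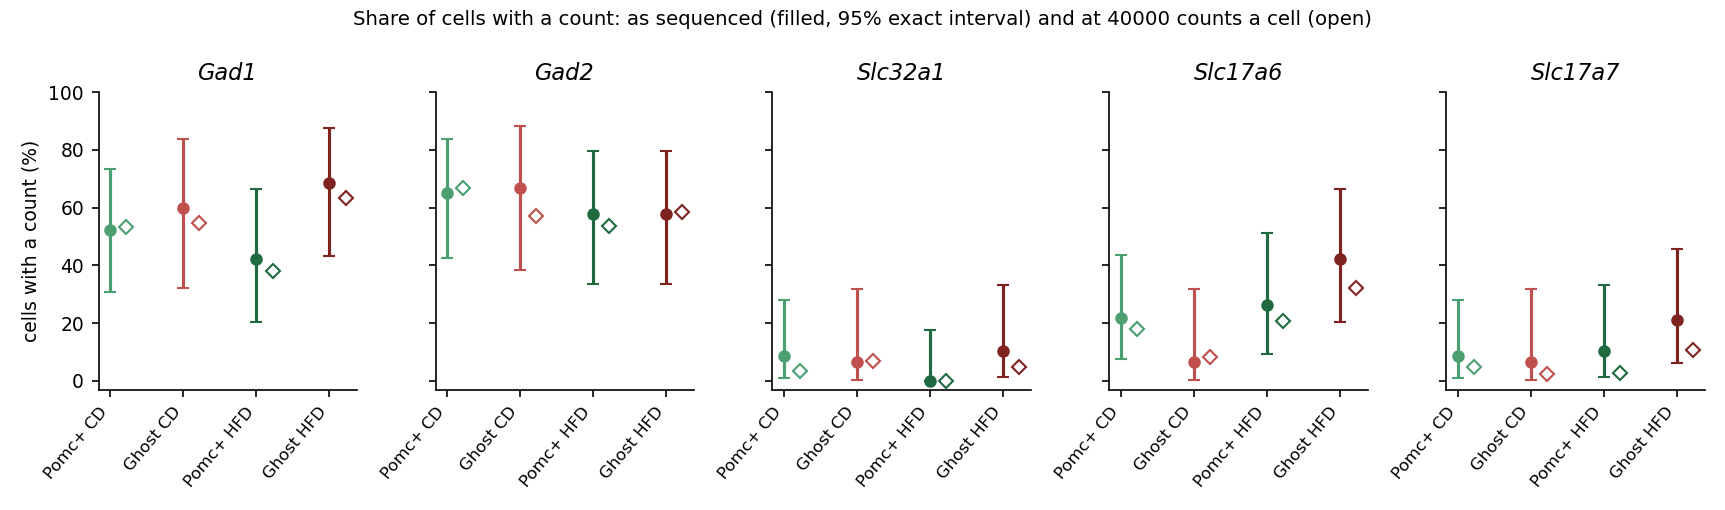
Share of cells with a count (percent) for 5 genes by label and diet, with filled points as sequenced and bars for 95% exact intervals. Open diamonds give the share expected at 40000 counts per cell, with cells below that left out. *Slc17a6* goes from 6.67% in Ghost CD to 42.1% in Ghost HFD cells, while the intervals of all groups overlap for every gene shown.

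*Slc17a7* and *Slc17a8* added little. *Slc17a7* had 54 counts in 9 cells, 2 Pomc+ CD, 1 Ghost CD, 2 Pomc+ HFD and 4 Ghost HFD cells, and only 3 of them had at least 5 counts. The highest was 36.5 CPM, from 3 counts in Ghost HFD cell 652. It was counted with *Slc17a6* in 4 cells, all on HFD, and without it in 5. *Slc17a8* had 4 counts, all in Ghost HFD cell 637, the cell with the most genes (9808). That cell also held *Gad1* at 428, *Gad2* at 433 and *Slc17a6* at 13 CPM.

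Cells were then sorted by co-detection, with *Gad1* or *Gad2* as the mark of GABA and *Slc17a6* as the mark of glutamate. Of 76 cells, 39 had the GABA mark only (51.3%, 39.6 to 63), 16 had both (21.1%, 12.5 to 31.9), 3 had *Slc17a6* only (3.95%, 0.822 to 11.1) and 18 had neither (23.7%, 14.7 to 34.8). Nearly all cells with *Slc17a6* thus also had a decarboxylase gene, 16 of 19. *Slc17a6* was counted in 16 of 55 cells with a decarboxylase (29.1%, 17.6 to 42.9) and in 3 of 21 without (14.3%, 3.05 to 36.3), at median totals of 397617 and 94237 counts. In 12 of the 76 cells both marks held with at least 5 counts each, 6 of them Ghost HFD, 4 Pomc+ CD, 1 Ghost CD and 1 Pomc+ HFD.

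GABA-only cells made 11 of 23 in Pomc+ CD (47.8%, 26.8 to 69.4) and 11 of 15 in Ghost CD (73.3%, 44.9 to 92.2). On HFD they made 9 of 19 in Pomc+ (47.4%, 24.4 to 71.1) and 8 of 19 in Ghost (42.1%, 20.3 to 66.5). The expected GABA-only shares at 40000 counts per cell were 58.3% in Pomc+ CD and 62.3% in Ghost CD cells. On HFD they were 43.6% in Pomc+ and 49.5% in Ghost cells, so that the labels changed places. With the 7 genes counted in every cell left out, they were 64.6% and 65.1% on CD, and 46.2% and 52.4% on HFD. Cells below 40000 counts were not part of the first shares. Of these, Ghost CD cells 659, 711 and 712 and Pomc+ HFD cell 693 were GABA only. Pomc+ CD cells 700 and 701 and Ghost HFD cells 657 and 713 had neither mark. The change of cells and the change of depth were not separated. Cells with both marks made 5 of 23 in Pomc+ CD (21.7%, 7.46 to 43.7), 1 of 15 in Ghost CD (6.67%, 0.169 to 31.9), 3 of 19 in Pomc+ HFD (15.8%, 3.38 to 39.6) and 7 of 19 in Ghost HFD (36.8%, 16.3 to 61.6). All of these intervals overlapped. The Ghost cells on HFD had the highest share with both marks. The lowest share was that of Ghost cells on CD as counted, but with at least 5 counts it was that of Pomc+ HFD cells (5.26% against 6.67%), and likewise when cells were thinned with the 7 genes found in each cell left out (5.25% against 6.42%). At 40000 counts per cell the expected shares with both marks were 17.8%, 8.33%, 10.2% and 30.4% in the same order. Without cells 637 to 657, 1 of 8 Ghost HFD cells (12.5%, 0.316 to 52.7) and 2 of 9 Pomc+ HFD cells (22.2%, 2.81 to 60) had both, so that the order of the labels on HFD turned.

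The 3 cells with *Slc17a6* and no decarboxylase count were all on HFD. Pomc+ cell 651 held 394 counts of *Slc17a6* (274 CPM) among 1435547, and Pomc+ cell 672 held 13 counts (56.7 CPM) among 229084. Ghost cell 646 held 2 counts (5.23 CPM) and also 4 counts of *Slc32a1*. No CD cell was of this kind, 0 of 38, which allows a share of up to 7.89% by the limit of 3 cells and of up to 9.25% by the exact interval.

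**Figure D4:**
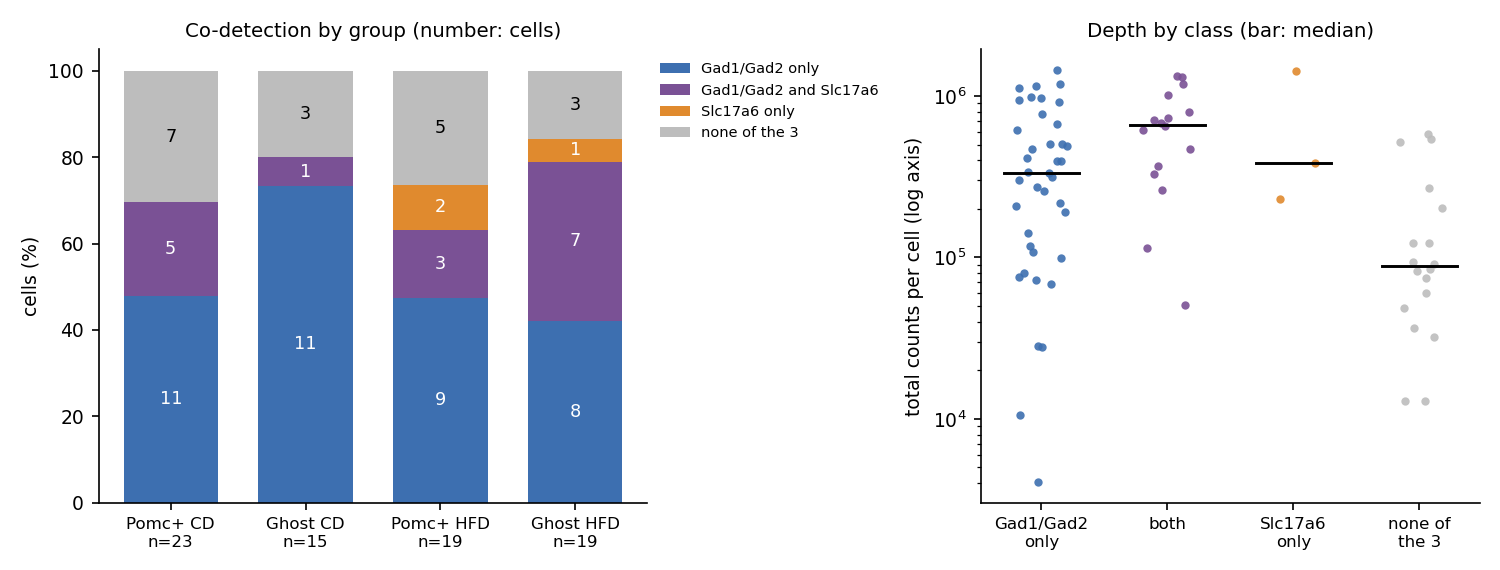
Left, share of cells (percent) in each group that had *Gad1* or *Gad2* only, either of them with *Slc17a6*, *Slc17a6* only, or none of the 3, with the number of cells in each block. Right, total counts per cell on a log axis for these classes, with a bar at the median; cells with none of the 3 lie lowest (median 88421) and cells with both marks highest (median 666198).

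The 4 classes also differed in depth and in other neuronal genes. Median totals were 333785 counts in GABA-only cells, 666198 in cells with both marks, 382186 in the 3 *Slc17a6*-only cells and 88421 in cells with neither. Median gene numbers were 3383, 5614, 3165 and 1580. *Pomc*, the gene of the melanocortin precursor, had a median of 7751 CPM in cells with both marks, 2437 CPM in GABA-only cells and 1929 CPM in cells with neither. In the 3 *Slc17a6*-only cells its median was 4187 CPM. *Npy*, a peptide gene of the neighbouring AgRP neurons, was counted in 15 of 39 GABA-only cells, 1 of 16 cells with both marks, 0 of 3 *Slc17a6*-only cells and 1 of 18 with neither. *Agrp* was counted in 8, 1, 0 and 0 of these cells. *Snap25* was counted in 13 of the 18 cells with neither mark, against all 16 with both and 35 of the 39 with GABA only.

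Mean levels were compared as ratios between groups, with 2-fold as the size of interest and no test. A ratio past 2-fold was common among the 12265 genes that reached 5 counts in 3 or more cells. Of the 6 genes described here, *Gad1*, *Gad2*, *Slc17a6* and *Slc17a7* were among them. In Ghost against Pomc+ cells 56.8% of genes were past 2-fold on CD and 56.2% on HFD. In HFD against CD it was 51.4% in Pomc+ and 59.9% in Ghost cells. Of these 4, 2 were past 2-fold between the labels on CD, 1 on HFD, 0 between the diets in Pomc+ cells and 3 in Ghost cells. A share of 4 genes is coarse beside these backgrounds, and none is read as a result about the set.

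The mean of *Gad1* was 257 CPM in Pomc+ CD, 288 in Ghost CD, 133 in Pomc+ HFD and 227 in Ghost HFD cells. The mean of *Gad2* was 350, 579, 190 and 143 CPM in the same order. Both were lower on HFD in either label, at 0.517 and 0.787 times the CD mean for *Gad1* and 0.542 and 0.247 times for *Gad2*, in Pomc+ and Ghost cells. Without cell 712 the last ratio was 0.532. Without Ghost CD cell 659 *Gad1* in Ghost cells was level between the diets at 1.04. The Ghost to Pomc+ ratio of *Gad2* was 1.65 on CD and 0.753 on HFD, but it was 0.766 on CD without cell 712 and 1.32 on HFD without Pomc+ cell 639, so a single cell set its side on each diet. Summed counts gave 0.707 on CD and 1.57 on HFD. That of *Gad1* was 1.12 on CD and 1.71 on HFD, and it was 0.848 without cell 659 and 1.07 without Ghost HFD cell 694. Compared within runs of cell numbers the HFD ratio was 0.894, and from summed counts the CD ratio was 0.69, so that either side of 1 was reached on both diets.

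The mean of *Slc17a6* was 29 CPM in Pomc+ CD, 11.4 in Ghost CD, 23.5 in Pomc+ HFD and 46.8 in Ghost HFD cells. Ghost to Pomc+ it was 0.393 on CD and 1.99 on HFD. Without Pomc+ cell 686 the CD ratio was 0.864, and the HFD ratio was 0.749 without Ghost cell 649 and 4.9 without Pomc+ cell 651. Between the diets it was 4.11 in Ghost cells, or 1.54 without cell 649, and 0.81 in Pomc+ cells, with a range of 0.329 to 1.78 over cells left out in turn and 1.91 from summed counts. A single cell held between 56.5% and 100% of the summed CPM of each group. The ratios of *Slc17a7*, 0.357 on CD and 4.21 on HFD between the labels, rest on 1 to 4 cells a group. For *Slc32a1* they rest on at most 2 cells a group.

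The wider set of transmitter genes held 27 further genes for turnover of GABA and glutamate, for transport over the plasma membrane, and for other small transmitters. Of these, 23 had a count and 19 passed the filter on low counts. In Ghost against Pomc+ cells 2 had a mean more than 2-fold higher and 4 more than 2-fold lower on CD, where 23.5% of all genes tested were higher and 33.3% lower. The median log2 ratio was -0.19 against -0.06 over all genes. On HFD 0 were higher and 10 lower, against 21.8% and 34.4% of all genes, with a median of -1.17 against -0.23. In HFD against CD 4 were higher and 1 lower in Pomc+ cells, against 28.7% and 22.7% of all genes, with a median of 0.57 against 0.12. In Ghost cells 5 were higher and 8 lower, against 31.6% and 28.3%, with a median of -0.35 against -0.07.

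In this list 2 genes counted in at least 10 cells were past 2-fold in the same direction between the labels on both diets. Both take up transmitter from outside the cell. The share of all genes that do so on both diets was not counted, so the number is not read as a result. *Slc6a11*, a GABA transporter, was counted in 15 cells, 4 Pomc+ CD, 2 Ghost CD, 5 Pomc+ HFD and 4 Ghost HFD cells. Its means were 15.8 CPM in Pomc+ CD and 2.59 in Ghost CD, and 31.4 in Pomc+ HFD and 12.9 in Ghost HFD cells. Its log2 ratio of Ghost to Pomc+ was -2.61 on CD and -1.29 on HFD. *Slc1a3*, a glutamate transporter, was counted in 36 cells with means of 68.1 and 17.2 CPM on CD and 82.2 and 6.32 CPM on HFD, at log2 ratios of -1.98 and -3.70. Astrocytes express both genes strongly. The summed level of 6 astrocyte markers, of which *Slc1a2* and *Slc1a3* are members, had group medians of 37.5 CPM in Pomc+ CD, 25.9 in Ghost CD, 344 in Pomc+ HFD and 20.2 in Ghost HFD cells. It ranged from 0 to 1313, 1302, 1343 and 327 CPM, with counts of 6, 5, 6 and 6 of the markers. The part of such RNA in the ratios was not tested. *Slc1a2* and *Glul*, the astrocyte genes of glutamate uptake and glutamine synthesis, had means of 108 and 162 CPM in Pomc+ HFD and of 21 and 29.8 CPM in Ghost HFD cells. On CD they went the other way, with 68.7 and 49 CPM in Pomc+ and 118 and 64.5 CPM in Ghost cells.

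Between the diets, *Abat*, which breaks GABA down, had means of 127 CPM on CD and 263 on HFD in Pomc+ cells, and of 74.7 and 161 in Ghost cells. *Slc38a1*, a glutamine transporter that supplies neurons, went the other way, with 122 and 29.7 CPM in Pomc+ and 176 and 42.6 CPM in Ghost cells. Both were singled out after their values were seen, and their ratios were not recomputed with single cells left out. *Abat* was counted in 45 cells and *Slc38a1* in 39. Of all genes tested, 51.4% were past 2-fold between the diets in Pomc+ and 59.9% in Ghost cells. The summed level of 6 microglial markers had medians of 0.688 and 0 CPM on CD and 264 and 278 CPM on HFD, in Pomc+ and Ghost cells. It ranged from 0 to 1784 and 801 CPM on CD and from 0 to 9736 and 6013 CPM on HFD, with overlap. A count was found in 12 of 23 and 7 of 15 cells on CD, and in 13 of 19 and 15 of 19 on HFD. The part of such RNA in the means of *Abat* and *Slc38a1* was not tested.

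*Th*, the rate-limiting enzyme of catecholamine synthesis, was counted in 20 cells, *Ddc*, the decarboxylase that follows it, in 24 and the vesicular monoamine transporter *Slc18a2* in 18. The acetylcholine, serotonin and histamine genes *Chat*, *Tph2*, *Slc6a4* and *Hdc* were at 0 in all 76 cells, which allows a share of up to 3.95% by the limit of 3 cells and of up to 4.74% by the exact interval. *Slc18a3* and *Slc6a5*, for acetylcholine and glycine transport, had a count in 1 cell each.

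**Figure D5:**
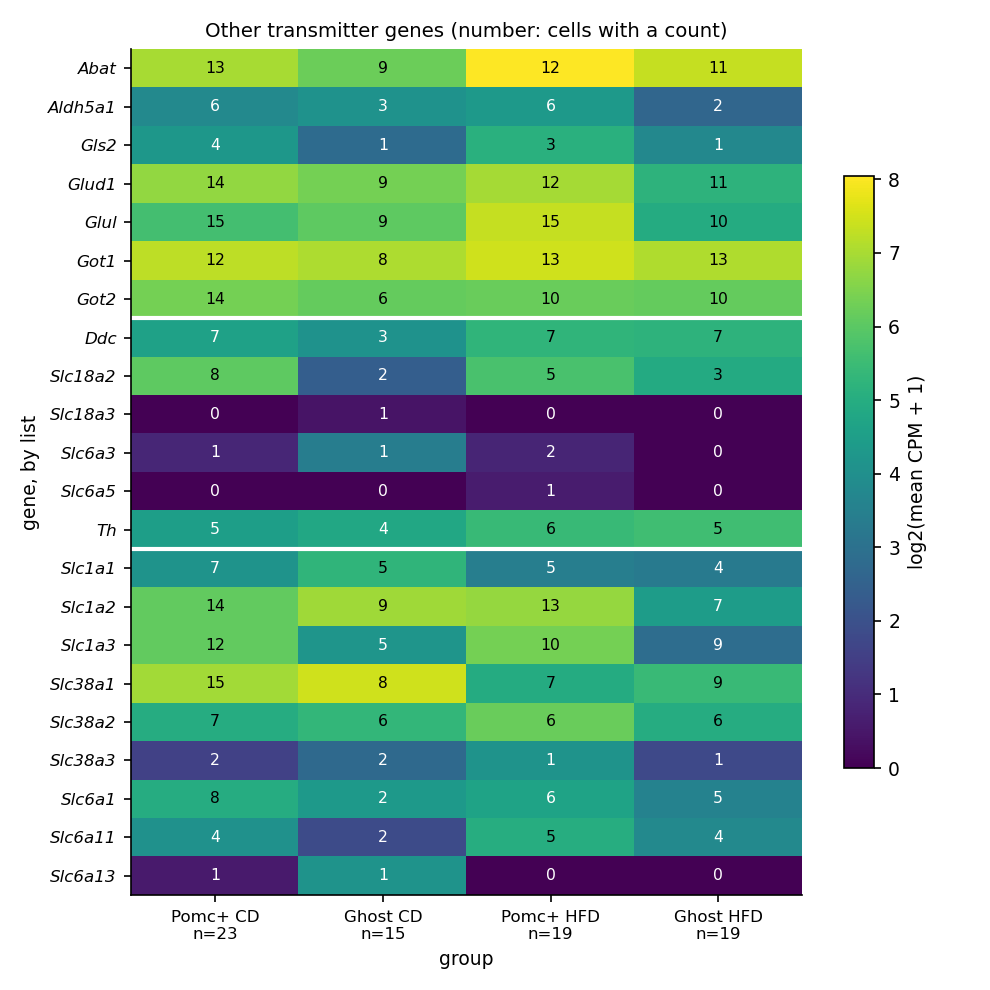
Mean level of 22 of the 23 further transmitter genes with a count, as log2(mean CPM + 1), by label and diet, with the number of cells with a count in each field. Rows are grouped by list; *Slc6a11* and *Slc1a3* are darker in Ghost than in Pomc+ cells on both diets, *Abat* is brighter and *Slc38a1* darker on HFD.

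The genes whose levels across the 76 cells were most like those of the members were picked by Pearson's r of log2(CPM + 1), among 6867 genes counted in at least 15 cells. For *Gad1* they were *Txnl4a* (r = 0.607), *Arpc4* (0.596) and *Irs4* (0.581), and *Gad2* itself had 0.396. For *Gad2* they were *Irs4* (0.554), *Ppp1r9a* (0.53) and *Tusc2* (0.524). *Irs4*, an insulin receptor substrate, was among the first 3 for both decarboxylases and was counted in 39 of 42 cells with *Gad1* and 42 of 47 with *Gad2*. It was counted in 52 of the 76 cells in all, and it was picked by its correlation in these same cells. For *Slc17a6* they were *Ube2e1* (0.646), *R3hdm4* (0.609) and *Cog8* (0.594). The cells share unequal depth, and the log10 number of genes per cell alone had r = 0.558 with *Gad1*, 0.401 with *Gad2* and 0.372 with *Slc17a6*.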

How the data were processed

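Per the methods of the study, cells were aspirated for 3 min, amplified with a SMART-Seq kit and made into libraries with Nextera XT, neither of which marks strand. The submitters' processing notes name cutadapt 2.10, STAR 2.7.5a, DESeq2 and the build GRCm38 (mm10). The counting program and annotation are not given in the sources used here. The authors deposited raw counts per gene and cell, and a normalized signal, which is the count divided by 1 size factor per cell. Molecular identifiers were not mentioned, so reads and not molecules were counted.

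CPM were computed from all gene counts of a cell. A gene was detected with at least 1 count. Equal-depth shares were computed exactly from the hypergeometric distribution at 40000 counts, leaving out 8 cells below that. The 6 genes and the lists were chosen with earlier results of these data known. Of the wider list, genes past 2-fold the same way on both diets and counted in at least 10 cells were named, and 1 gene of that list is counted but not reported here. For each of the 6 counted in at least 10 cells the 3 most correlated genes were named. Of 56980 identifiers, 52073 matched GENCODE M21, the source of names, positions, exon lengths and sequences. Python 3.11.15, scipy 1.17.1 and Biopython 1.88 were used.

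Alternatives were detection at 5 counts or 10 CPM, other marker genes, thinning to 40000 counts or to 10000 without the 7 genes counted in every cell (43.7% of counts), a filter of 1000 genes and 20% mitochondrial counts, the deposited signal, summed counts, runs of cell numbers, and each cell left out in turn.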

Additional observations from a re-analysis of the deposited data

Results flagged for a closer look

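Of the 6 genes, *Gad2*, *Slc17a6* and *Slc17a7* had means that were higher in Ghost than in Pomc+ cells on 1 diet and lower on the other, with ratios at least 2-fold apart. Each group is 1 sample, so this difference by diet was not tested. The share of all genes that change side in this way was not counted, so it is not read as a result about these genes. The Ghost to Pomc+ ratio of mean CPM was 1.65 on CD and 0.753 on HFD for *Gad2*. Without Ghost CD cell 712 it was 0.766 on CD, and without Pomc+ HFD cell 639 it was 1.32 on HFD. For *Slc17a6* it was 0.393 on CD against 1.99 on HFD. Without Ghost HFD cell 649 it was 0.749 on HFD, and without Pomc+ HFD cell 651 it was 4.9. For *Slc17a7* it was 0.357 on CD and 4.21 on HFD, from 9 cells with a count in all. Without Pomc+ CD cell 658 it was 0.861 on CD, and without Ghost HFD cell 652 it was 2.04 on HFD, while without Pomc+ HFD cell 717 it was 91.7.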

How the results depend on the processing

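With *Slc32a1* together with *Gad1* or *Gad2* as the GABA mark, GABA-only cells made 4.35% of Pomc+ CD, 6.67% of Ghost CD, 0% of Pomc+ HFD and 5.26% of Ghost HFD cells, cells with both marks 0% of each group, and cells with neither 73.9%, 86.7%, 73.7% and 52.6%. *Slc17a6*-only cells then made 21.7% of Pomc+ CD and 42.1% of Ghost HFD cells. The share of *Slc17a6*-only cells in Ghost HFD was 0% at 5 counts, at 10 CPM, with *Slc32a1* added to the GABA mark and without cells 637 to 657, and ran from 0% to 5.56% with each cell left out in turn. Cells with both marks in Ghost CD ran from 0% to 7.14%. Without cells 637 to 657, a choice made after seeing the data, Ghost HFD cells had 75% GABA only and 12.5% both. Of all 168 alternative class shares 146 stayed within the interval of the reported share. Ratios of Ghost to Pomc+ turned to the other side of 1 as follows. In the deposited normalized signal *Slc17a7* on CD was 1.08, *Gad1* on CD 0.447 and *Gad2* on CD 0.589. From summed counts *Gad1* on CD was 0.69, *Gad2* on CD 0.707 and *Gad2* on HFD 1.57. With the cell filter *Gad2* was 0.733 on CD and 1.32 on HFD, and within runs of cell numbers *Gad1* on HFD was 0.894. Between the diets *Slc17a6* in Pomc+ cells turned to 1.91 from summed counts. Of 117 alternative ratios, 46 besides that of *Slc17a7* differed from the reported ratio by over 1.5 times. The runs of cell numbers hold cells of both labels and were used as above. No analysis paired by mouse was possible because the labels name no mouse. Depth limits the classes: cells with neither mark had a median of 88421 counts, so that a gene at 0 there is not shown to be absent.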
